A study of Mus musculus with 4 samples.

Results

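Glycerol kinase, encoded by Gk, attaches phosphate to glycerol and so returns it to the backbone of triglycerides and phospholipids. Liver, kidney and brown fat are known for high activity of the enzyme. White adipocytes carry little of it, so most glycerol freed by lipolysis leaves them through the channel Aqp7, and their glycerol 3-phosphate comes mainly from glucose and from glyceroneogenesis, which runs through Pck1. Drugs that act on the adipocyte receptor Pparg have been reported to raise Gk in fat cells.

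Gk was chosen for this role, with earlier results of these data known. It is 1 of 15 genes that the scanner files name by the accession of a RefSeq mRNA. It was read by 1 named probe (CUST_12_PI419532418), printed in 20 spots per array, of 60900 probes kept. Beyond those 15 genes the mRNA probes carry no gene name there, so whether any of them also reads Gk was not tested. The study placed RNA from 2 mouse cell lines on 4 one-colour (Cy3) arrays with long noncoding RNA and mRNA probes, and asked which transcripts take part in forming adipocytes. The 4 groups, with 1 array each, were C3H10T1/2 at day 0, C3H10T1/2 at day 4, 3T3-L1 at day 0 and 3T3-L1 at day 4 of induced adipocyte differentiation. C3H10T1/2 is a mesenchymal line that can also form bone, cartilage and muscle cells, and 3T3-L1 is a line already committed to the fat lineage. The agents used for induction and the number of cultures behind each array were not given in the sources used here.

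All 4 arrays came from 1 slide. Between 59.0% and 63.9% of probes were well above background, no spot was saturated, and the 75th percentile of the processed intensity ran from 321 to 388. The files pair no probe with any of the 9 white adipocyte, 6 brown or beige adipocyte, 6 preadipocyte and fibroblast, 3 muscle, 5 bone and cartilage, 3 macrophage and 2 endothelial markers listed for a check of the labels. How far each line had converted by day 4 was therefore not measured here. Per the labels, ribosomal RNA was removed and the rest amplified along the whole transcript, without a bias to the 3′ end. RNA from fewer cells and less RNA per cell cannot be told apart in such bulk samples.

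Gk lies on the X chromosome, and the RefSeq table of GRCm38 lists 8 transcripts for it, 5 of them curated. Which of these the probe reads, and whether it also reads the related Gk2, was not tested. The promoter is printed to place the gene in its sequence. It covers 250 bases before and 50 after the listed start, from RefSeq (GRCm38.p6, chrX:85776770-85777069, minus strand, read 5′ to 3′ along the gene). Capitals mark matches, on either strand, to the E-box CACGTG, the GC box GGGCGG and the cAMP half-site TGACG.

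Gk promoter: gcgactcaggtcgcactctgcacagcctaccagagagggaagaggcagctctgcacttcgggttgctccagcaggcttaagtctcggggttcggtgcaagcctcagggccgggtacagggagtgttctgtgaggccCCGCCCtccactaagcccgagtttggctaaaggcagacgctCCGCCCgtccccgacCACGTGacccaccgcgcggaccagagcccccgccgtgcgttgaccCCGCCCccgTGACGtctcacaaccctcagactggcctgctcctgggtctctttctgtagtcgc

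The window held 1 match to the E-box CACGTG, 58 to 53 bases before the start, a motif found in 7.15% of 32851 promoters of the same length. It held 3 matches to the GC box GGGCGG, all on the opposite strand, and 35.7% of promoters held at least 1. The half-site TGACG of the cAMP response element matched 1 time, across the start itself (20.8% of promoters), and the full element TGACGTCA did not (1.79%). No match was found to TATAAA (13.6%), CCAAT (37.4%) or to AGGTCA repeated after 1 base (0.0396%), the kind of direct repeat that Pparg binds with its partner. None of the matches overlapped. The window was rich in G and C, with 65.7% against a median of 52.7% over all promoters, and held 23 CG pairs against a median of 7. These are descriptions of the letters, and the arrays measured RNA and not binding at this window.

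The Gk probe was dim and clearly detected on every array. In C3H10T1/2 at day 0 its 20 spots ran from 133 to 191 intensity units, with a median of 171. At day 4 of the same line they ran from 131 to 201, with a median of 166. In both arrays all 20 spots were well above background, and their ranges nearly coincided.

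In 3T3-L1 at day 0 the spots ran from 114 to 162, with a median of 138, the lowest of the 4 arrays. At day 4 they ran from 153 to 220, with a median of 184, the highest of the 4. Again all 20 spots of each array were well above background. The geometric means without spots marked as outliers (2, 0, 0 and 1 of 20) were 167 and 164 on the C3H10T1/2 arrays (day 0, then day 4) and 138 and 179 on the 3T3-L1 arrays.

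Probes designed to match no mouse transcript, in 300 spots per array, gave the floor. Their medians lay between 5.62 and 6.46, and Gk was 26.9, 25.5, 24.5 and 29.9 times as bright in the same order of arrays. The brightest single such spot reached 42.5, 41.8, 34.4 and 145, and all 20 Gk spots exceeded it on each array. Gk was brighter than 66.5%, 64.9%, 60.7% and 66.3% of all probes. Among the 15 named probes it stood 14th in brightness on every array, ahead of Ldhal6b only. Brightness also depends on the probe, so this order does not rank the transcripts by abundance.

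Scaled by subtracting the 75th percentile of log2 intensity on the same array, the Gk level was -0.95 ± 0.14 in C3H10T1/2 at day 0 (SD over spots, as for every error below unless named) and -1.15 ± 0.15 at day 4. In 3T3-L1 it was -1.49 ± 0.15 at day 0 and -0.99 ± 0.15 at day 4. The spot SD is technical and says nothing of the spread between cultures. The order from high to low was C3H10T1/2 at day 0, 3T3-L1 at day 4, C3H10T1/2 at day 4 and 3T3-L1 at day 0. The first pair in that order differed by 0.04 with a spot SD of 0.19, which is within the spread of the spots. The next pair differed by 0.16 with an SD of 0.13, and the last pair by 0.35 with an SD of 0.11, both more than the spot SD. Before scaling the order was another, with 3T3-L1 at day 4 first (geometric mean 179) and C3H10T1/2 at day 0 next (167).

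**Figure D1:**
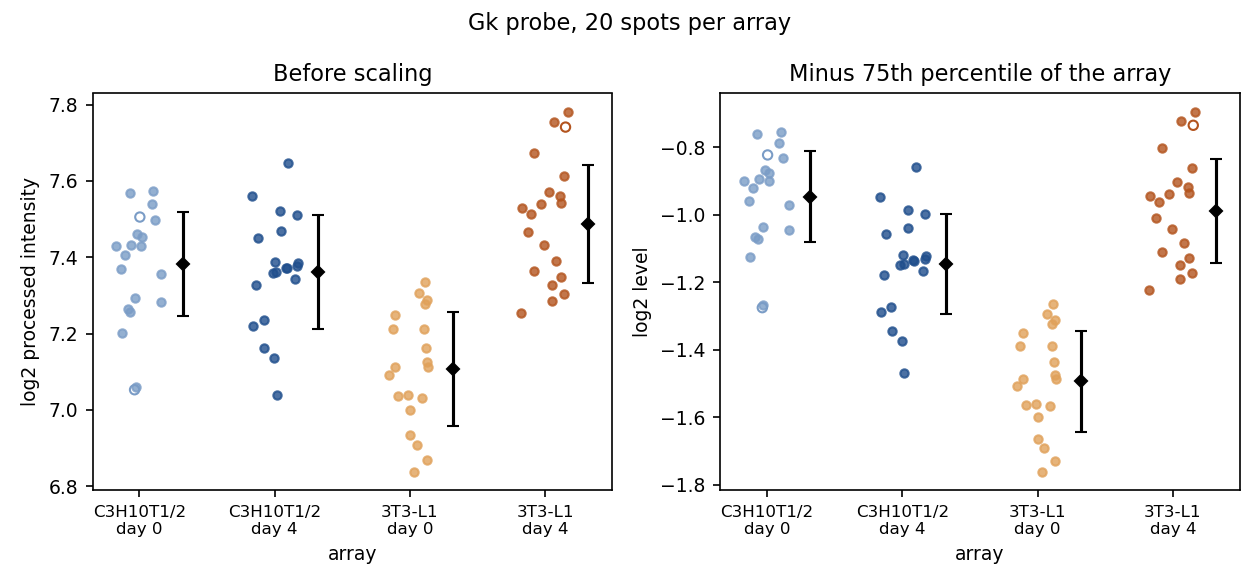
Each point is 1 spot of the Gk probe on the log2 scale, for the 4 arrays, before scaling (left) and after subtraction of the 75th percentile of the array (right); open circles are spots marked as outliers, and diamonds with bars are the mean ± SD of the others. The 3T3-L1 array at day 0 is lowest in both panels (137.8 units as a geometric mean), and the C3H10T1/2 arrays lie level before scaling (166.8 and 164.5 units).

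The first comparison asked whether Gk differed between day 4 and day 0. In 3T3-L1 the signal was 1.42-fold higher at day 4 (log2 difference 0.50 ± 0.13). It was higher in 19 of 19 matched spots, by 0.28 to 0.86, and the scaled spots of both days did not overlap. In C3H10T1/2 the scaled signal was 1.15-fold lower at day 4 (-0.20 ± 0.17), lower in 16 of 18 matched spots, and the spots of both days overlapped. Neither difference reached 2-fold, a size that 16.1% of 38303 probes reached in C3H10T1/2 and 19.1% of 40237 reached in 3T3-L1. With 1 array per group, neither has a replicate check.

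The value in C3H10T1/2 depended on the scaling. Before scaling the log2 difference was -0.020 ± 0.17, with 7 matched spots higher and 11 lower, while the 75th percentile of the array was higher by 0.18 at day 4. In 3T3-L1 the unscaled difference was 0.38 ± 0.13, again above 0 in 19 of 19 spots, although the 75th percentile of that array was lower by 0.12. The unscaled spots of both days did overlap in 3T3-L1, with 15 of 19 at day 4 above all of those at day 0. Over the 10 other scalings and spot summaries, the value in C3H10T1/2 ran from -0.66 to -0.020 and stayed below 0. In 3T3-L1 it ran from -0.070 to 0.61 and was above 0 in 9 of 10, the exception being the scaling to the median of the other named genes.

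Over both lines, limma gave a mean log2 difference between days of 0.15 ± 0.32 (SE), with an adjusted p of 0.874 and an unadjusted p of 0.658. The 95% interval reached from 1.59-fold lower to 1.97-fold higher at day 4. Gk was not among the 2.94% of 38333 tested probes that limma called between days, and 75.3% of those probes had a smaller p. Of the 5.18 degrees of freedom behind this error, 1 came from the probe itself, through the gap between the responses of the lines, and the rest from the variance that limma shares across probes. The limma p, interval and calls between days thus measure agreement of the lines, not spread between cultures. The mean turned below 0 when levels were set against the other named genes (-0.36 against their median and -0.086 against their mean), and the limma adjusted p was 0.400 or more in all 14 alternatives.

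**Figure D2:**
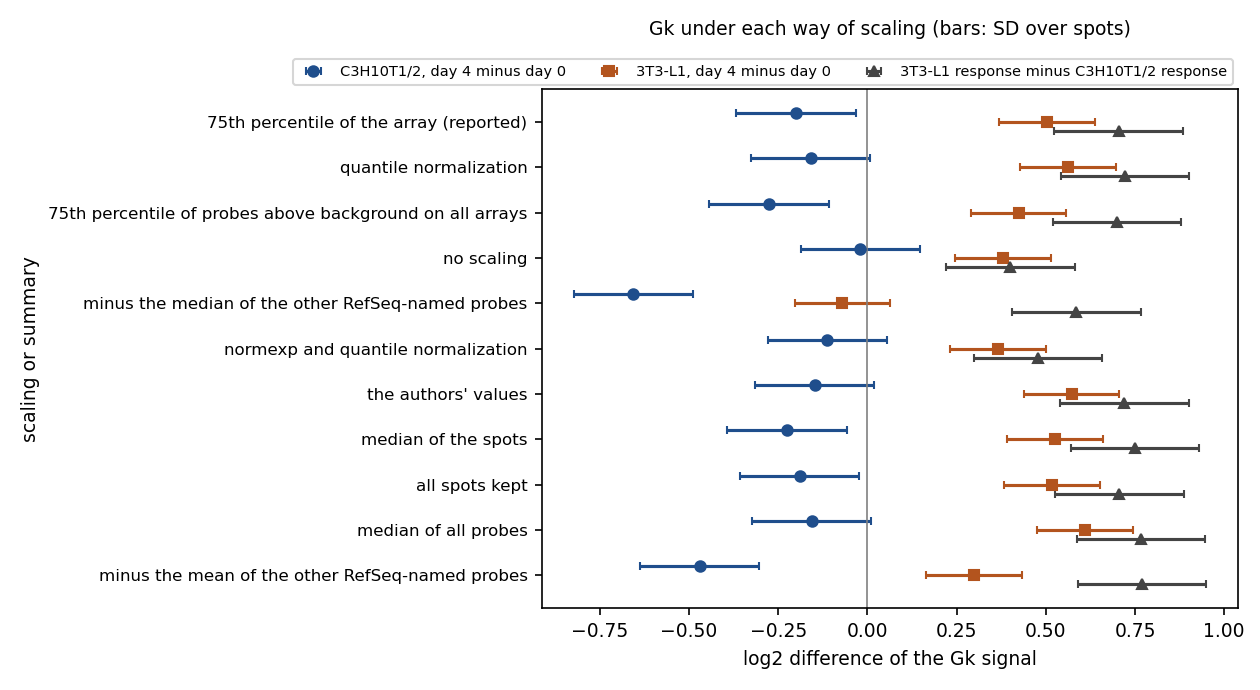
Log2 differences of the Gk signal (x axis) under the reported scaling and each alternative (y axis), with bars of 1 SD over spots as found under the reported scaling. The C3H10T1/2 values lie at or below 0 (-0.66 to -0.020), the 3T3-L1 values above 0 except for 1 (-0.070), and the difference between the responses stays between 0.40 and 0.77.

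The second comparison set the lines against each other. Before induction Gk was 1.46-fold lower in 3T3-L1 than in C3H10T1/2 (-0.55 ± 0.12). All 18 matched spots were lower, by 0.35 to 0.77, and the extremes of the spot ranges overlapped slightly. Without scaling the difference was -0.28 ± 0.12, also below 0 in 18 of 18 spots. At least 2-fold differences between lines at day 0 were found for 14.0% of 39960 probes. At day 4 Gk was 1.12-fold higher in 3T3-L1 (0.16 ± 0.13), higher in 18 of 19 matched spots, where 14.9% of 38917 probes differed at least 2-fold. The spot ranges overlapped, with 3 of the 3T3-L1 spots above all of those in C3H10T1/2. Without scaling the day 4 difference was 0.13 ± 0.13, above 0 in 16 of 19 spots. Over both days the limma difference was -0.19 ± 0.32 (SE, adjusted p = 0.866), with a 95% interval from 2.03-fold lower to 1.55-fold higher in 3T3-L1. Limma called 3.0% of probes between lines, and Gk was not one of them. For this contrast the days were the only replication, so spread between cultures was again not measured.

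The third comparison was between the responses. The day 4 minus day 0 difference of Gk was greater in 3T3-L1 than in C3H10T1/2 by 0.70 ± 0.18 on the log2 scale, and greater in 18 of 18 spots measured on all 4 arrays. It kept this direction in all 10 alternatives, with the lowest value, 0.40, before scaling. The design leaves no residual for a test of this difference. Among 38333 probes the difference between responses had a median of 0.06, and 85.4% of probes lay below Gk. By size alone, 68.6% of probes had a smaller difference.

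Against all probes the day difference of Gk was small in C3H10T1/2 and of middling size in 3T3-L1. In C3H10T1/2 27.8% of probes above background on at least 1 array had a smaller difference between days than Gk, and 38.4% had a lower value. In 3T3-L1 52.4% had a smaller difference, and 77.3% had a lower value. The median size over all probes was 0.40 in C3H10T1/2 and 0.47 in 3T3-L1, beside 0.20 and 0.50 for Gk.

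**Figure D3:**
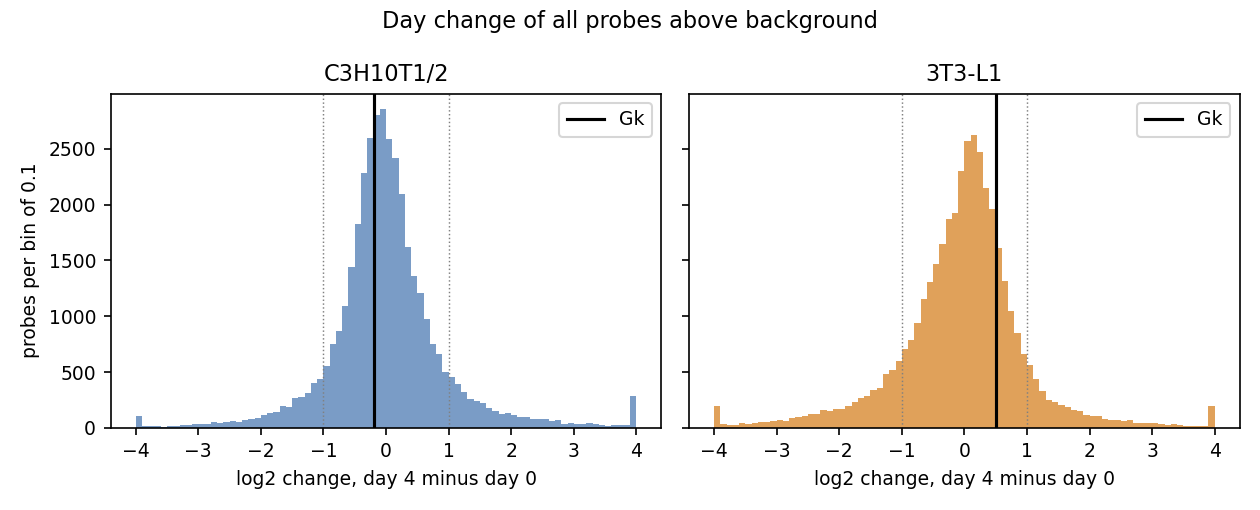
Histograms of the log2 difference between days (x axis) over all probes above background on at least 1 array of the line, with the number of probes per bin on the y axis; the end bins hold all larger values, dotted lines mark 2-fold, and the black line is Gk. Gk lies close to the centre in C3H10T1/2 (-0.20) and on the upper side in 3T3-L1 (0.50), inside the 2-fold lines in both.

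Gk was set beside the other 14 named genes. Of these, 13 are on a list of reference genes that was chosen with earlier results known and includes Ldhal6b. In 3T3-L1 5 of the 14 had a higher day difference than Gk and 9 a lower one, with a range from -1.18, the bound for Ldhal6b, to 1.40 and a median of 0.18. In C3H10T1/2 9 were higher and 5 lower, with a range from -0.76 to 3.09 and a median of -0.10. For the difference between responses, 3 of 14 exceeded Gk. They were the paraspeckle gene Nono (0.94 ± 0.06), the purine salvage gene Hprt (0.76 ± 0.14) and the chaperone gene Hsp90ab1 (0.71 ± 0.11), named after their values were seen. The distance from Gk to Hprt and Hsp90ab1 is less than the spot SD of Gk. Limma called 0 of the 15 between days at an adjusted p under 0.05, against 2.94% of all tested probes. At an unadjusted p under 0.05 it found 2, G6pd2 and Tfrc, against 18.5% of all tested probes. In limma, G6pd2 was called where probes had to be above background on all 4 arrays (adjusted p = 0.0371) and where no filter was set (0.0466), and Tfrc without a filter (0.000886).

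**Figure D4:**
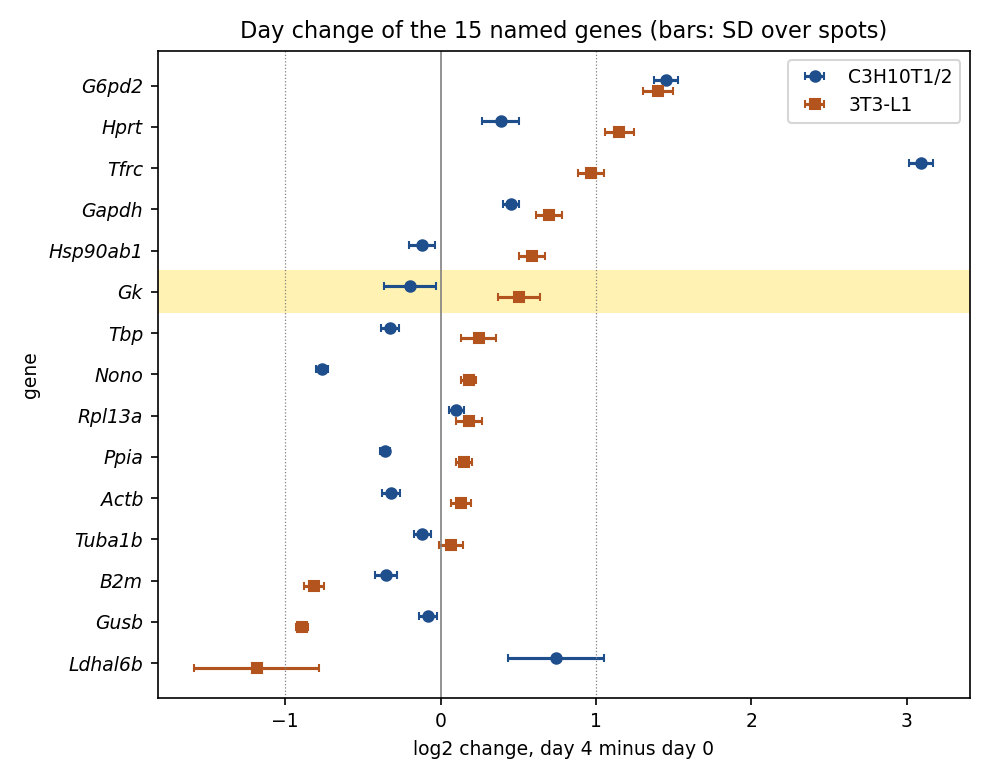
Log2 difference between days (x axis) of the 15 named genes (y axis, ordered by 3T3-L1), with bars of 1 SD over spots and dotted lines at 2-fold; Gk is shaded. Gk is sixth from the top in 3T3-L1 (0.50), and its C3H10T1/2 value (-0.20) lies on the other side of 0; Ldhal6b was below background on 1 array of each line.

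Of 25 genes listed for glycerol use and the triglyceride cycle, among them Aqp7, Gpd1, Pck1, Dgat2 and Pnpla2, Gk was the 1 that the files name, and 0 passed limma in either direction. Of 18 enzymes of glycolysis, lactate formation and the pentose phosphate pathway, 3 had a RefSeq name. None passed limma, where 2.94% of all probes did, although G6pd2 passed in the alternatives just named. Their median day difference was 0.74 in C3H10T1/2 (0.56 with Ldhal6b at its bound) and 0.70 in 3T3-L1, beside -0.04 and 0.05 over all tested probes. Gapdh, a glycolytic enzyme downstream of the point where glycerol carbon enters, had intensities of 74866 (day 0) and 116118 (day 4) in C3H10T1/2. In 3T3-L1 they were 83404 and 124406. The log2 differences of Gapdh were 0.45 ± 0.05 and 0.70 ± 0.08 (limma adjusted p = 0.380). G6pd2 encodes a glucose-6-phosphate dehydrogenase, which feeds the pentose phosphate pathway, and had 679 and 2105 in C3H10T1/2. In 3T3-L1 it had 763 and 1848. The log2 differences of G6pd2 were 1.45 ± 0.08 and 1.40 ± 0.10 (limma adjusted p = 0.0743), and whether its probe also reads the closely related G6pdx was not tested. Under the reported scaling both genes had higher signals at day 4 in both lines, and the values of Gk lay on opposite sides of 0. That contrast depended on the scaling. Without scaling Gk differed by -0.020 ± 0.17 in C3H10T1/2. Against the median of the other named genes, both Gk values were below 0 (-0.66 and -0.070), and those of Gapdh lay on opposite sides of it.

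Pgk1, on the same list, was named only in control probes. The mouse probe with suffix 3 differed by 1.38 and 1.22 between days in C3H10T1/2 and 3T3-L1, and the one with suffix 5 by 2.37 and 2.02. Ldhal6b, a lactate dehydrogenase-like gene, was well above background in 1, 19, 20 and 6 of 20 spots on the 4 arrays. By the bound for arrays not well above background it was at least 1.47-fold higher at day 4 in C3H10T1/2 and at least 2.27-fold lower in 3T3-L1.

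Of 19 listed reference genes, 13 were named and 0 passed limma between days, beside 2.94% of all probes, although Tfrc passed without a filter. Their median difference was -0.12 in C3H10T1/2 and 0.18 in 3T3-L1, beside -0.20 and 0.50 for Gk. Of 5 listed X-linked genes, 3 were named. Hprt had log2 differences of 0.39 ± 0.12 and 1.15 ± 0.09 in C3H10T1/2 and 3T3-L1, and Nono -0.76 ± 0.04 and 0.18 ± 0.05. In all 3 the value was greater in 3T3-L1, by 0.70 for Gk. The same held for 9 of the 14 named genes other than Gk, Hprt and Nono among them. Over 38333 probes the median difference between responses was also above 0 (0.06), so this direction is not particular to these genes. Pgk1, also on this list but named only in control probes, had smaller values in 3T3-L1 than in C3H10T1/2. They were 1.22 against 1.38 for suffix 3, and 2.02 against 2.37 for suffix 5. No test in this design addresses these differences.

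The profile of Gk over the 4 arrays, taken as the level minus the gene's own mean, was nearest to that of Ppia, a peptidyl-prolyl isomerase gene, with a root mean square difference of 0.16. Next came Actb, a cytoskeletal actin (0.19), and Tuba1b, an alpha-tubulin (0.19). Under the reported scaling these genes shared with Gk the lowest level in 3T3-L1 at day 0, lower than in C3H10T1/2 by 0.61 ± 0.07 for Ppia, 0.67 ± 0.05 for Actb and 0.51 ± 0.05 for Tuba1b, beside 0.55 for Gk. They were picked on these same levels, and Hprt, Gapdh and G6pd2 were also lowest on that array. Between days in 3T3-L1 Ppia, Actb and Tuba1b differed by 0.15 ± 0.05, 0.13 ± 0.07 and 0.07 ± 0.08, less than Gk. Those values turned below 0 in 3, 3 and 4 of the 4 other normalizations tried on all named genes (quantile, another percentile set, normexp and the authors' own), in which Gk stayed above 0. The farthest was Tfrc, the transferrin receptor (1.19). Ldhal6b came next by its measured levels, but it was not well above background on 2 of the 4 arrays, so neither its distance nor its place is settled. With 4 arrays on 1 slide these distances are descriptions, and all profiles share the arrays and their scaling.

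**Figure D5:**
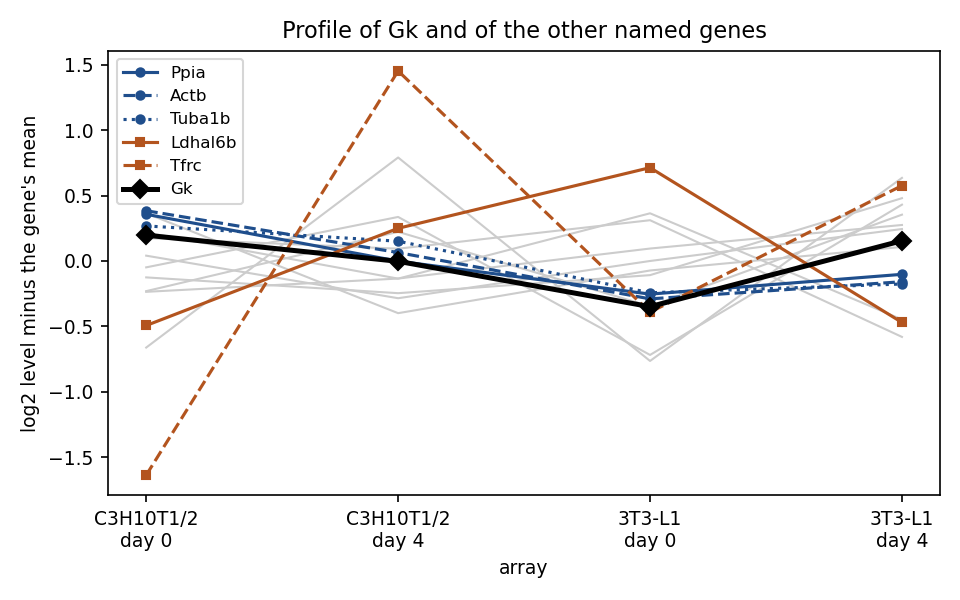
Level of each named gene minus its own mean (y axis, log2) on the 4 arrays (x axis): Gk in black, the 3 nearest profiles in blue, the 2 farthest in orange and the rest in grey; lines only join values of 1 gene, and Ldhal6b was not well above background on 2 arrays. Under the reported scaling Gk, Ppia, Actb and Tuba1b all have their lowest level in 3T3-L1 at day 0, as do Hprt, Gapdh and G6pd2 in grey. The Gk level differs more at day 4 (0.50) than those of Ppia, Actb and Tuba1b do (0.15, 0.13 and 0.07).

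The precision of Gk was lower than that of the brighter probes. Its spot SD, as a median over arrays, was 0.15, against a median of 0.05 and a range from 0.03 to 0.29 in the other 14, of which 1, Ldhal6b (not well above background on 2 arrays), had a larger one. Its mean log2 intensity was 7.33, against a median of 14.0 in the others. The error that the scanner software assigned to each Gk spot had a median of 10.6%, 10.7%, 10.7% and 10.5% of the signal on the 4 arrays.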

How the data were processed

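The authors' deposited scanner files hold 1 intensity per spot, background-subtracted and detrended within its array by Agilent Feature Extraction 11.0.1.1, per the file headers and the submitters' processing notes; arrays were not scaled to each other. The flags (other values of 0 or 1) were used as deposited. A separate deposited table holds the authors' log2 values, whose normalization is not given in the sources used here; its column medians were all 5.94 over the probes used, so genes were not centred on 0, and the Gk differences had the same signs. It served as an alternative only.

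Spots of a probe were averaged on the log2 scale without outliers, 15 non-uniform probes printed once were left out, and the 75th percentile of each array was subtracted. A probe counted as above background if at least 50% of its spots were well above it. Limma 3.58.1 (R 4.3.3) took the probes above background on 2 or more of the 4 arrays and had line and day as terms, Benjamini-Hochberg adjustment over all probes and a threshold of 0.05, after a check on simulated data. The simulated probes all had the same SD, so the check does not give the error rate in these data. In 2-fold counts, an array where the probe was not above background entered at its lowest signal above background or the probe's own, whichever was higher. Fold values are back-transformed log2 differences.

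The gene, lists and tests were chosen with earlier results of these data known. By rule, Gk was described in full, with the 3 nearest and 2 farthest named genes by profile and the listed genes that the files name. Names came from the RefSeq table of GRCm38, which matched all 15 accessions; the design's build, mm9, differs, so of coordinates the text holds that of the RefSeq promoter alone. Alternatives were other scalings, normexp (offset 50, on spot and background medians) with quantile normalization, spot summaries, filters, models and the authors' values. Precision is limited by having 4 arrays. Figures used matplotlib 3.10.9.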

Additional observations from a re-analysis of the deposited data

Results flagged for a closer look

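In 8 of the 15 named genes the arrays differed between days in opposite directions in the lines, as they did for 37.3% of 38333 probes; this was not tested, as no group had a replicate. The count depended on the scaling and ran from 4 to 8 over 10 alternatives. Gk was among these genes in all of them but the scaling to the median of the other named genes. With quantile normalization, normexp and the authors' values the count was 6, without Actb and Ppia and with Tuba1b turned in sign in both lines, and without scaling Hsp90ab1 was not among them. The log2 day difference in 3T3-L1 exceeded that in C3H10T1/2 by 0.70 for Gk, with 16 of 18 matched spots below 0 in C3H10T1/2 and 19 of 19 above 0 in 3T3-L1. The same quantity was 0.94 for Nono, 0.71 for Hsp90ab1, 0.57 for Tbp, 0.51 for Ppia, 0.45 for Actb and 0.18 for Tuba1b. Ldhal6b was not well above background on 1 array of each line, so that only a bound of -1.74 can be given for it.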

How the results depend on the processing

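The day difference of Gk stayed below 0 in C3H10T1/2, its level stayed lower in 3T3-L1 than in C3H10T1/2 at day 0 and higher at day 4, and its response stayed greater in 3T3-L1, in all 10 scalings and spot summaries; those to the array median and to the mean of the other named genes were chosen after seeing the data. Values that moved by more than their spot SD or turned in sign follow, and the cause was not tested. Without scaling, the day difference in C3H10T1/2 was -0.020, the line difference at day 0 was -0.28 and the difference between responses 0.40. With normexp and quantile normalization, the day difference in 3T3-L1 was 0.37, the line difference at day 0 was -0.38 and the difference between responses 0.48. Against the median of the other named genes, the day differences were -0.66 in C3H10T1/2, -0.070 in 3T3-L1 and -0.36 over both lines; against their mean they were -0.47, 0.30 and -0.086. That median is the level of the middle genes, which were not the same on each array. For the line contrast, limma adjusted p ran from 0.841 to 0.983 over 14 alternatives.

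The main counts of probes called by limma were 1126 for day and 1151 for line. They became 0 and 248 without scaling (6024 and 4664 at an unadjusted p under 0.05), 73 and 260 with normexp, 1749 and 674 with the filter on all arrays, 4098 and 3436 without a filter, and 0 and 234 without the term for the other factor (4857 and 3061 at an unadjusted p under 0.05). Probes at least 2-fold different between days numbered 6181 in C3H10T1/2 and 7672 in 3T3-L1, and 3654 and 4345 with normexp, with 9418 in C3H10T1/2 without a filter. Between lines they numbered 5594 at day 0 and 5812 at day 4, 3411 and 3217 with normexp, 8758 and 9143 without a filter, and 3626 at day 0 with the filter on all arrays. For the other named genes, 130 of 223 values stayed within their spot SD or on their side of the threshold. Another 87 moved by more than their spot SD, all of them day differences within a line. Limma values over both lines entered these counts by threshold and sign only. Of those, 3 became called between days: G6pd2 when all 4 arrays had to be above background (limma adjusted p = 0.0371) and without a filter (0.0466), and Tfrc without a filter (0.000886). Rpl13a turned below 0 over both lines with quantile normalization (-0.042), normexp (-0.054) and the authors' values (-0.034). No paired analysis was possible because the labels give no replicate numbers and each group has 1 array; the cell line was the block of the reported fit. At 24.5 to 29.9 times the negative control level, the Gk signal was measurable on every array, but the spots say nothing of the spread between cultures.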

Other observations

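The 20 Gk spots were spread over the array, which allowed a look at position. In the 10 spots of the upper rows the day difference was 0.56 ± 0.12 in 3T3-L1 and -0.20 ± 0.22 in C3H10T1/2 (10 and 9 matched spots). In the 10 spots of the lower rows it was 0.44 ± 0.12 and -0.20 ± 0.11 (9 and 9 matched spots). Spots at the same position deviated together on some arrays, with Pearson's r over 18 to 20 spots from 0.18 to 0.73 between pairs of arrays; these points share the printed position and are not independent samples.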
